A study of Homo sapiens with 8 samples.

Results

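The genes of the mitochondrial genome were taken as all genes that the deposited count table places on chromosome M, which gave 37 of 36474 genes. They comprised 13 protein-coding genes, 2 ribosomal RNA (rRNA) genes and 22 transfer RNA (tRNA) genes, and all 37 passed the filter on low counts. The counts came from poly(A)-selected RNA of LNCaP cells, an established line from a metastasis of a human prostate carcinoma. The cells were starved in medium that lacked serum and calcium and then given recombinant asporin (ASPN), a small leucine-rich protein of the extracellular matrix, at 100 ng/mL. There were 2 libraries at 0 h, 3 at 12 h and 3 at 24 h, and the comparisons ask how mitochondrial transcripts changed after ASPN. No library kept for 12 or 24 h without ASPN was analysed here, so ASPN and time in the starvation medium cannot be told apart. All libraries came from 1 cell line.

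The mitochondrial genome is a small circle present in many copies per cell and transcribed inside the organelle by its own polymerase, POLRMT. Both strands are copied as long precursors, and enzymes that recognise tRNAs cut these into separate mRNAs, rRNAs and tRNAs. The mRNAs encode core subunits of respiratory complexes I, III and IV and of ATP synthase, the machinery of oxidative phosphorylation, and the remaining subunits come from nuclear genes. Most mitochondrial mRNAs carry short poly(A) tails, the rRNAs carry very short ones, and mature tRNAs end in CCA. A poly(A)-selected library therefore captures these classes unequally, and single mRNAs may be captured unequally too.

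In the annotation 12 of the 13 mRNA genes lie on the plus strand and only MT-ND6 on the minus strand. The genes sit nearly end to end, and some share bases. The regions below are from GRCh38 and printed 5′ to 3′ on the plus strand. They show where neighbours cannot be counted apart and where MT-TN and MT-TC, which are among the best-counted tRNAs, lie. In the first, chrM:8507-8592, capitals mark the 46 bases from 8527 to 8572 that MT-ATP8 and MT-ATP6 share in different reading frames. In the second, chrM:10740-10786, capitals mark the 7 bases shared by MT-ND4L and MT-ND4. In the last, chrM:5657-5826, capitals mark the 31 bases between MT-TN and MT-TC, both on the minus strand, where replication of the light strand starts.
MT-ATP8/MT-ATP6: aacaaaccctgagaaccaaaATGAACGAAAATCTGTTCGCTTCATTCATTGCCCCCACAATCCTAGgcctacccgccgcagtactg
MT-ND4L/MT-ND4: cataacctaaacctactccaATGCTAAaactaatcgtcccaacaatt
MT-TN/MT-TC: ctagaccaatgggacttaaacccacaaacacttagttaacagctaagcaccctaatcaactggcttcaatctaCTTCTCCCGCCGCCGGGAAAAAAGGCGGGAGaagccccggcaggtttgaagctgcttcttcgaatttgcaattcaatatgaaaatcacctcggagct

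The reads were 150 bases long. Of the 150-base windows centred in each gene, 6.28% touched no other annotated gene for MT-ATP8, 47.5% for MT-ND4L and 56.9% for MT-ND3, against 71.2% to 91.8% for the other 10 mRNAs. For every tRNA this share was 0%. The values of MT-ATP8, MT-ND4L, MT-ND3 and all tRNAs are therefore uncertain in how reads were divided with their neighbours.

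Nuclear chromosomes also hold old copies of mitochondrial DNA. The table held 96 such genes with 188270 counts over the 8 libraries, of which MTATP6P1 on chromosome 1 took 148246, or 6.68 for every 100 counts of MT-ATP6. MTATP6P1 differed from MT-ATP6 at 10 of 681 positions, an identity of 98.5%. The 90-base stretches below, from chrM:8642-8731 and chr1:633811-633900 of GRCh38, are shown because they hold 4 of the 10 differences, marked by capitals.
MT-ATP6: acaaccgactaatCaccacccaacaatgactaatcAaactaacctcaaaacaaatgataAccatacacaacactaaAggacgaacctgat
MTATP6P1: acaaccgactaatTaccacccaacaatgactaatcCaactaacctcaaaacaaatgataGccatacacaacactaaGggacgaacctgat

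No 150-base window of MT-ATP6 was identical in an annotated nuclear copy, since its longest identical run with MTATP6P1 was 141 bases. Identical windows made up 18.7% of those of MT-CO1, 14.7% of MT-ND2, 6.07% of MT-ND1 and 100% of MT-TN. Of the other tRNAs, MT-TK had 32.9% and MT-TS1 1.45%, and the other 10 mRNAs and both rRNAs had none.

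Library totals ran from 73406825 to 96962135 counts, and chromosome M took 6.20% to 7.32% of them. The mRNAs made up 67.3% to 70.0% of the mitochondrial counts, the rRNAs 29.8% to 32.4% and the tRNAs 0.258% to 0.337%. The mRNA with the fewest counts, MT-ATP8, averaged 40233 a library, so the spread between libraries and not counting error limited the precision for mRNAs and rRNAs. The cells carried luminal prostate markers, as the label of the line says. The 9 luminal prostate genes summed to 5043 to 5854 CPM, against 0.0278 to 0.266 CPM for 4 leukocyte genes and 0.0727 to 0.247 CPM for the basal genes. Summed fibroblast markers lay at 21.9 to 24.8 CPM and endothelial markers at 12.0 to 18.5 CPM. CPM here means counts divided by the library's nuclear counts, TMM-scaled, and set to a total of 1000000, so that a change of the mitochondrial RNAs does not enter its own denominator. A fall of mitochondrial RNA per cell and a rise of the nuclear RNA it is measured against cannot be told apart.

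One library stood apart in its mitochondrial RNA. In 12 h replicate 1, the shares of the 13 mRNAs in their common pool deviated from the mean of the other 7 libraries by 0.113 (root mean square, log2), against 0.0244 to 0.0477 in each of the others. MT-ND2 lay 0.20 below and MT-ND6 0.13 above the other libraries on that scale. MTATP6P1 had 28173 counts there and 14607 to 21105 elsewhere, which is 12.3 against 5.60 to 6.51 per 100 MT-ATP6 counts. The tRNA share was 0.258% of mitochondrial counts there and 0.315% to 0.337% in the other 7. Results that rest on 12 h replicate 1 are given below with and without it.

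**Figure D1:**
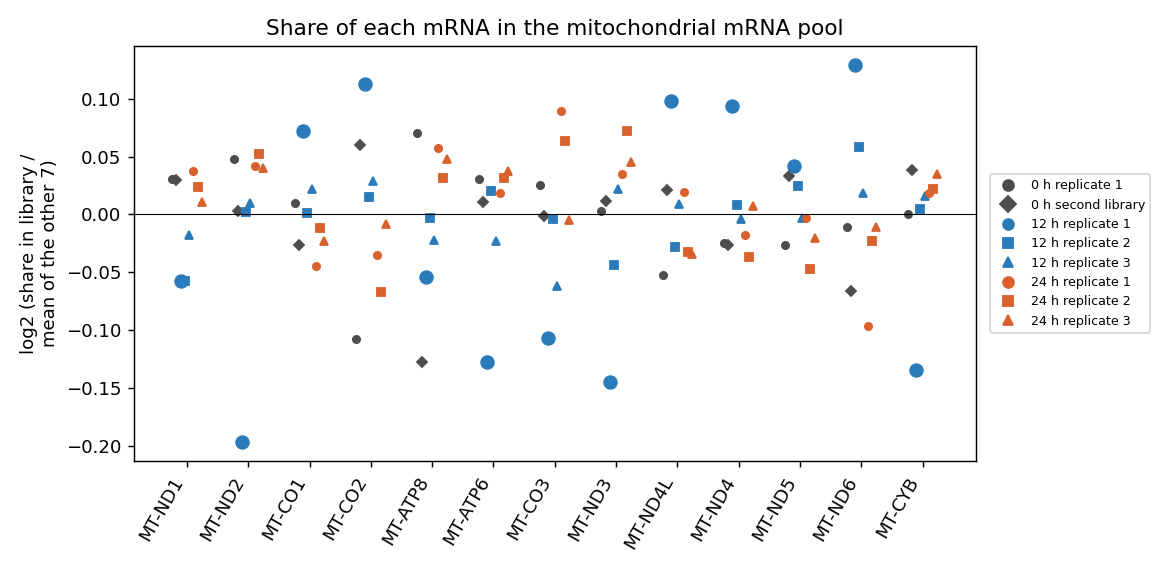
Share of each mitochondrial mRNA in the summed mRNA counts of its library, as the log2 ratio to the mean of the other 7 libraries (y axis), with genes in genome order (x axis) and 1 point per library. The larger blue circles, 12 h replicate 1, lie farthest from 0 for 11 of the 13 genes, down to -0.20 for MT-ND2.

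Levels of the mitochondrial transcripts differed widely when set per kilobase of gene. MT-RNR2, the 16S rRNA of the large mitochondrial ribosomal subunit, was the highest at 13640 ± 994 CPM per kilobase (mean ± SD over 8 libraries). MT-CO1, the catalytic subunit of cytochrome c oxidase (complex IV), led the mRNAs at 9516 ± 395. MT-CO3, another core subunit of that complex, followed at 6777 ± 552. These 3 did not overlap with their neighbours in the order in any library.

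Below them, MT-ATP6, the proton channel subunit of ATP synthase, lay at 5171 ± 355 and MT-CO2, the complex IV subunit that takes electrons from cytochrome c, at 5009 ± 282 CPM per kilobase. MT-ND4 (4361 ± 202) and MT-ND1 (4348 ± 276), membrane subunits of complex I, could not be ordered, each being the higher in 4 of 8 libraries. MT-CYB, the only mitochondrially encoded subunit of complex III, lay at 3847 ± 253 and MT-ND4L of complex I at 3746 ± 203. A lower set held MT-ND2 (2522 ± 194), MT-ATP8 (2462 ± 162), MT-ND5 (1764 ± 90.0) and MT-ND3 (1663 ± 120).

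MT-ND6, the complex I subunit and sole mRNA gene on the minus strand, had the lowest mRNA level in these poly(A)-selected libraries. It lay at 1333 ± 64.3 CPM per kilobase, which is 7.14-fold under MT-CO1. How fully each mRNA was captured by its tail was not measured, so this order need not be that in the cells. MT-RNR1, the 12S rRNA of the small ribosomal subunit, lay at 1834 ± 138, below 10 of the 13 mRNAs. The 16S to 12S ratio per length was 7.02 to 7.65, although both rRNAs come from 1 precursor. Of the 14 neighbouring pairs in the order, 8 kept the same order in all 8 libraries. The other 6 changed places in at least 1 library, among them MT-ATP6 with MT-CO2 and MT-RNR1 with MT-ND5.

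**Figure D2:**
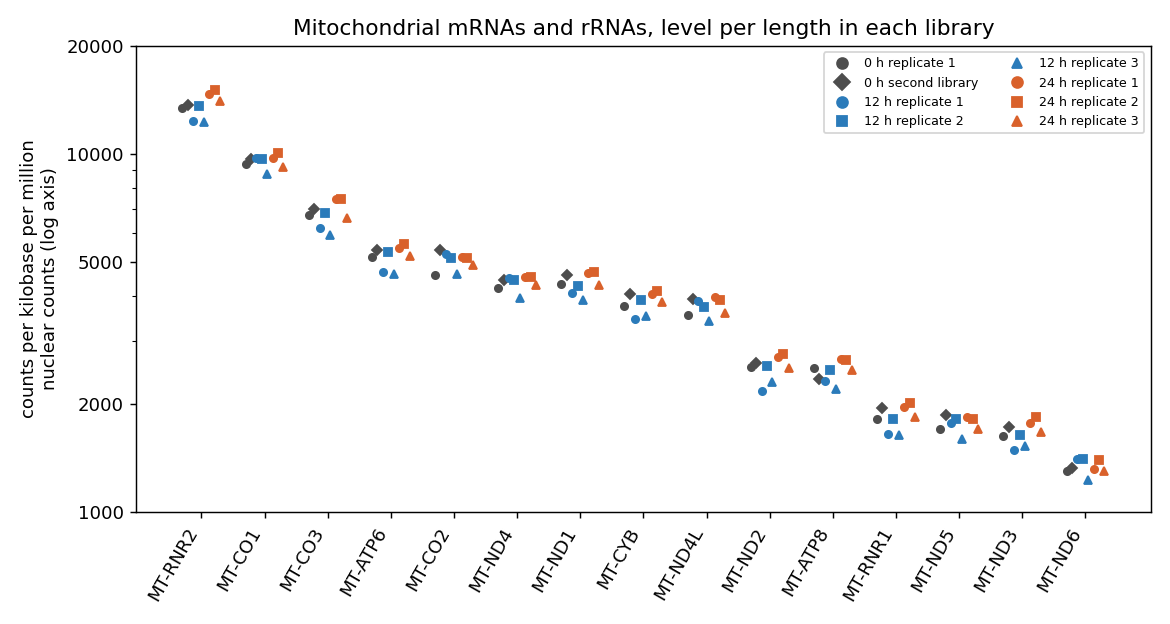
Level of the 13 mRNAs and 2 rRNAs in CPM per kilobase (log y axis), with genes ordered by their mean (x axis) and 1 point per library, coloured by time point. Differences between genes, from 1333 for MT-ND6 to 13640 for MT-RNR2, are far larger than those between time points.

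The make-up of the mRNA pool by respiratory complex varied by little. The 3 complex IV mRNAs took 46.5% and 46.4% of the mRNA counts at 0 h, 47.7%, 46.7% and 46.7% at 12 h, and 46.3%, 46.6% and 46.1% at 24 h. The 12 h libraries were thus the highest, most of all replicate 1. The 7 complex I mRNAs took 36.4% to 36.7%. MT-CYB took 8.05% to 8.94% and the 2 ATP synthase mRNAs 7.47% to 8.21%. For complex IV, MT-CYB and ATP synthase, the outlying end of these ranges was 12 h replicate 1. MT-CO1 alone held 28.5% to 30.5% of the pool.

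The tRNAs gave few counts, unevenly. MT-TP, the proline tRNA next to the non-coding control region, averaged 6953 counts a library, MT-TC (cysteine) 5204 and MT-TN (asparagine) 3382, and these 3 took 84.8% of all tRNA counts. MT-TL1, a leucine tRNA between MT-RNR2 and MT-ND1, followed with 1273 and MT-TY (tyrosine) with 450. All but MT-TL1 of these 5 lie on the minus strand, and the 8 minus-strand tRNA genes took 88.5% of the tRNA counts. Of the 22 tRNAs, 13 averaged under 100 counts, between 1 and 123 in single libraries, too few to resolve small changes. Since every window of a tRNA reaches a neighbouring gene, such counts can stem from precursors as well as from tRNAs, which was not tested. The 31 bases printed in capitals above lie between MT-TN and MT-TC.

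**Figure D3:**
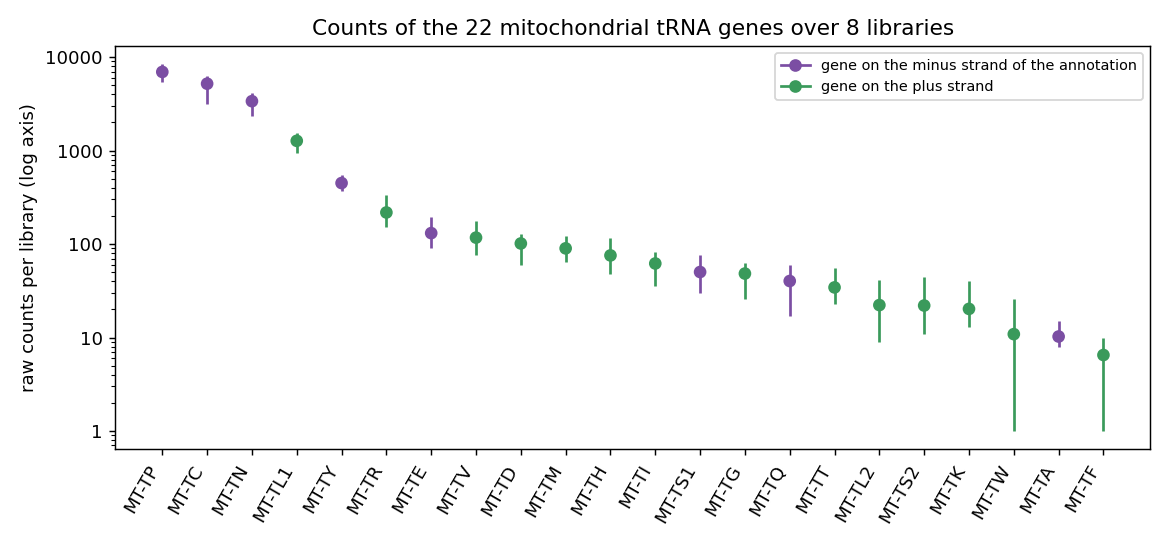
Raw counts of the 22 mitochondrial tRNA genes (log y axis), ordered by mean (x axis). Points are means over 8 libraries, lines run from the lowest to the highest library, and colour gives the strand of the gene in the annotation. The 3 best-counted tRNAs, MT-TP, MT-TC and MT-TN, are on the minus strand.

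Between 12 h and 24 h both rRNAs and 6 of the 13 mRNAs rose slightly relative to nuclear genes. At an adjusted p of at most 0.05 (edgeR quasi-likelihood test, Benjamini-Hochberg over the 21071 genes tested), 8 of the 37 genes were called, all higher at 24 h, where 2.76% of all genes tested were called and 1.09% were called higher. No tRNA was called. Their changes lay between 1.11-fold and 1.15-fold, and none reached 1.5-fold, which 0.18% of all genes did together with the adjusted p. At an unadjusted p of at most 0.05 there were 7 mRNAs and 7 tRNAs, but the share of all genes at that threshold was not counted. DESeq2 called 7 mRNAs, both rRNAs and again no tRNA, with 752 calls over 36474 genes. The median log2 change of the 13 mRNAs was 0.15, against 0.0018 over all genes.

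The rRNAs changed the most clearly. MT-RNR2 had 19279, 21246 and 19069 CPM at 12 h and 22880, 23477 and 21932 CPM at 24 h. Each 24 h library was above each 12 h library. The log2 change was 0.20 ± 0.039 (SE, edgeR adjusted p = 0.00258). MT-RNR1 had 1577, 1732 and 1561 CPM at 12 h and 1876, 1916 and 1754 CPM at 24 h. The groups did not overlap, and the log2 change was 0.19 ± 0.042 (edgeR adjusted p = 0.0098).

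Of the 7 complex I mRNAs, 3 rose. MT-ND1 had 3914, 4072 and 3728 CPM at 12 h and 4448, 4473 and 4099 CPM at 24 h, which did not overlap (log2 change 0.15 ± 0.040, edgeR adjusted p = 0.0294). MT-ND3 also did not overlap, with 514, 568 and 528 CPM at 12 h and 614, 637 and 579 CPM at 24 h (0.19 ± 0.043, edgeR adjusted p = 0.0111). MT-ND2, another membrane subunit, overlapped in 1 library of each time: it had 2273, 2665 and 2395 CPM at 12 h and 2817, 2873 and 2635 CPM at 24 h (0.18 ± 0.045, edgeR adjusted p = 0.0178). The other complex I mRNAs did not pass the test. Their log2 changes were 0.055 for MT-ND4L, 0.048 for MT-ND4, 0.052 for MT-ND5 and -0.0078 for MT-ND6.

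In complex IV, MT-CO3 rose from 4851, 5370 and 4635 CPM at 12 h to 5862, 5848 and 5184 CPM at 24 h (log2 change 0.19 ± 0.048, edgeR adjusted p = 0.0317). Its groups overlapped, since 12 h replicate 2 was above 24 h replicate 3. MT-CO1 and MT-CO2 differed by 0.041 ± 0.040 and 0.013 ± 0.048 and did not pass the test (edgeR adjusted p = 0.731 and 0.95). Both ATP synthase mRNAs, which come from 1 overlapping transcript, rose by like amounts. MT-ATP6 had 3178, 3614 and 3148 CPM at 12 h and 3725, 3806 and 3527 CPM at 24 h (0.15 ± 0.043, edgeR adjusted p = 0.0473). MT-ATP8 had 481, 516 and 456 CPM at 12 h and 552, 551 and 514 CPM at 24 h (0.15 ± 0.044, edgeR adjusted p = 0.0459). For both, 12 h replicate 2 lay within the range of the 24 h libraries. MT-CYB missed the threshold, with 3945, 4464 and 4018 CPM at 12 h and 4642, 4717 and 4390 CPM at 24 h (edgeR adjusted p = 0.0574). It passed with DESeq2 (adjusted p = 0.043), with no low-count filter (edgeR, 0.0064), with only these time points fitted (0.0453), with a replicate block (0.0124), without 12 h replicate 2 and without either 0 h library. Over all alternatives its adjusted p ran from 0.00153 to 0.312.

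The calls rested on few libraries. The 6 mRNAs called were all among the 7 whose pool share was low in 12 h replicate 1. Without that library 2 mRNAs, MT-ND1 and MT-ND3, and both rRNAs were called. The log2 change was then 0.13 for MT-ND2 (edgeR adjusted p = 0.066) and 0.15 for MT-ATP8 (0.0645). For MT-ATP6 it was 0.12 (edgeR adjusted p = 0.183) and for MT-CO3 0.17 (0.463). No mRNA was called without 12 h replicate 3, 24 h replicate 1 or 24 h replicate 2. The rRNAs were then called in 0, 1 and 0 of 2. Without 24 h replicate 3 there were 4 mRNAs and both rRNAs. Calls over all genes fell in these fits as well, from 581 with all libraries. They were 542 without 12 h replicate 1 and 240 without 12 h replicate 3. Without 24 h replicate 1, 2 or 3 they were 236, 215 and 275. With scaling over nuclear protein-coding genes the mRNA count was 3. When the counts of the nuclear copies were added to their parent genes, MT-ATP6 was no longer called (edgeR adjusted p = 0.094; 0.000409 to 0.307 over all its alternatives) and 5 mRNAs were.

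No overlap between 12 h and 24 h was seen for 10 of the 37 genes, all higher at 24 h, where 9.99% of all genes were higher and 9.51% lower without overlap. Besides the 4 above they were MT-TV, MT-TQ, MT-TM, MT-TN, MT-TY and MT-TP. MT-TP, the tRNA with the highest count, had 75.4, 89.0 and 81.9 CPM at 12 h and 90.7, 93.3 and 91.9 CPM at 24 h, a log2 change of 0.16 ± 0.049 (edgeR adjusted p = 0.068). It passed with no low-count filter (edgeR adjusted p = 0.0332), with a replicate block (0.0223) and without 12 h replicate 2 (0.00542), and MT-TN passed with no low-count filter (0.0321). Without 12 h replicate 1 the log2 change was 0.11 for MT-TP (edgeR adjusted p = 0.284) and 0.069 for MT-TN (0.668), against 0.19 for MT-TN with it.

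**Figure D4:**
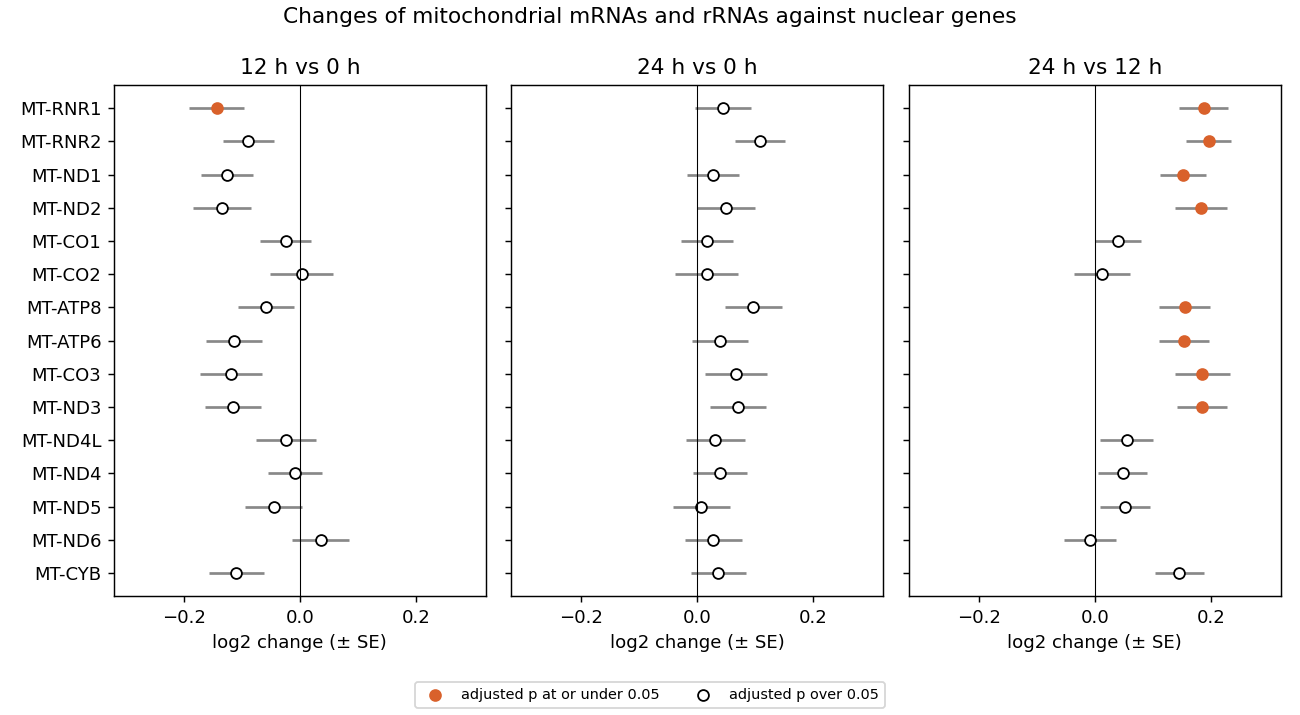
Log2 change of each mitochondrial rRNA and mRNA (x axis, points with SE bars), in genome order (y axis), for the 3 comparisons, with 12 h minus 0 h, 24 h minus 0 h and 24 h minus 12 h from left to right. Filled points passed an adjusted p of 0.05. No change exceeded 0.20 in size, and most filled points, 8, are in the comparison of 24 h with 12 h.

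From 0 h to 12 h the direction was opposite and fewer genes passed. MT-RNR1 and MT-TP were lower, making 2 of 37 genes called, where 11.5% of all genes were called, 5.23% higher and 6.24% lower. Neither reached 1.5-fold, which 1.07% of all genes did together with the adjusted p. MT-RNR1 had 1728 and 1857 CPM at 0 h, and 12 h replicate 2 exceeded the lower of these. Its log2 change was -0.14 ± 0.047 (edgeR adjusted p = 0.0447). MT-TP had 89.5 and 94.6 CPM at 0 h, above all 12 h libraries, with a log2 change of -0.16 ± 0.055 (edgeR adjusted p = 0.0478). Both calls were lost when only the libraries of these time points were fitted (edgeR adjusted p = 0.113 and 0.119) and when any library other than 12 h replicate 2 was left out.

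No mRNA was called at 12 h by edgeR. An unadjusted p of at most 0.05 was seen for 6 mRNAs, a threshold at which the share of all genes was not counted. DESeq2 called 1 mRNA, MT-ND1, with 2598 calls over 36474 genes. Of the 13 mRNAs, 11 had a negative log2 change, from -0.13 for MT-ND2 to 0.036 for MT-ND6, with a median of -0.058 against 0.0064 over all genes. MT-ND1 had 4146 and 4375 CPM at 0 h, above all 12 h libraries. The median was -0.11 without 0 h replicate 1 or without 12 h replicate 2, and -0.013 without 12 h replicate 3. MT-ND2 was at -0.084 without 12 h replicate 1. MT-ND1 is 1 of 3 of the 37 genes lower without overlap, besides MT-TN and MT-TP, where 18.6% of all genes were. Without 12 h replicate 2, edgeR called 6 mRNAs lower, and without 12 h replicate 1 it called none.

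At 24 h against 0 h none of the 37 genes was called, where edgeR called 16.3% of all genes tested and 2.45% at 1.5-fold or more. DESeq2 called none of the 37 either, with 3444 calls over 36474 genes. Of the 37, 1 gene, MT-RNR2, had an unadjusted p of at most 0.05, and the share of all genes at that threshold was not counted. All 13 mRNAs had a positive log2 change, between 0.0071 for MT-ND5 and 0.097 for MT-ATP8. Their median was 0.036, against 0.0025 over all genes, and the share of all genes with a positive change was not counted. MT-RNR2 had 20930 and 21312 CPM at 0 h, below every 24 h library, with a log2 change of 0.11 ± 0.043 (edgeR adjusted p = 0.0891). It was called without 12 h replicate 1 (edgeR adjusted p = 0.0338), without 12 h replicate 2, and when only these time points were fitted (0.0142). Of the 37 genes, 8 did not overlap between the groups, where 43.3% of all genes did not. Of these, 7 were higher (22.1% of all genes were) and 1, MT-TF, lower (21.2%). MT-TF had at most 10 counts in any library.

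The summed classes show the same values on a coarser scale. The mRNAs summed to 49178 and 51936 CPM at 0 h, 49000, 50952 and 45553 CPM at 12 h, and 52568, 53283 and 49215 CPM at 24 h. These groups overlapped. The rRNAs summed to 22657 and 23169 CPM at 0 h, 20855, 22978 and 20631 CPM at 12 h, and 24756, 25393 and 23686 CPM at 24 h. Here every 24 h library exceeded every earlier one.

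The rRNA sum per mRNA sum needs no nuclear denominator. It was 0.461 and 0.446 at 0 h, 0.426, 0.451 and 0.453 at 12 h, and 0.471, 0.477 and 0.481 at 24 h. All 24 h libraries lay above all others, also when 12 h replicate 1 is set aside. The mean rose 1.07-fold from 12 h and 1.05-fold from 0 h (exact permutation test over libraries, two-sided, p = 0.1 each, the smallest these group sizes allow). Capture of the rRNAs by their very short tails was not measured, so a difference in it between time points was not tested. The 9 RNAs without a poly(A) tail that were in the table are only a rough sign of how strictly tails were selected. They summed to 43.6 to 52.8 CPM at 24 h, 39.2 to 48.6 CPM at 12 h and 46.9 and 55.1 CPM at 0 h, which overlap. Single members did change. Of the 5 tested, SNORD3A was higher and TERC lower at 24 h than at 0 h, where 16.3% of all genes were called. SNORD3A, near the counting limit, was also higher at 24 h than at 12 h, where 2.76% of all genes were called. The share of all counts on chromosome M was 6.81% ± 0.214 at 0 h (SD, n = 2), 6.57% ± 0.366 at 12 h (n = 3) and 7.14% ± 0.265 at 24 h (n = 3). These ranges overlapped (exact permutation p = 0.4, 0.3 and 0.2 for 12 h with 0 h, 24 h with 0 h and 24 h with 12 h).

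**Figure D5:**
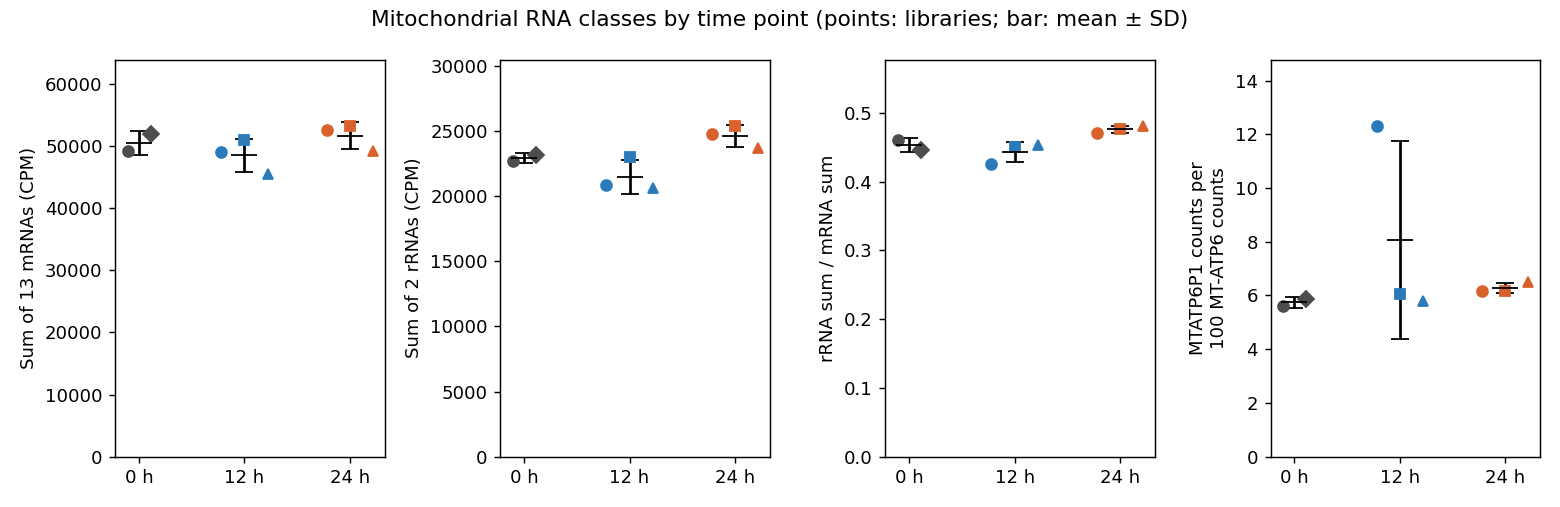
Summed mRNAs and summed rRNAs in CPM, the rRNA sum per mRNA sum, and MTATP6P1 counts per 100 MT-ATP6 counts (y axes, each from 0) by time point (x axes). Points are libraries, with circle, square and triangle for replicates 1 to 3 and a diamond for the second 0 h library, and bars are mean ± SD. The rRNA to mRNA ratio at 24 h (0.471 to 0.481) lies above all other libraries, and the point at 12.3 in the last panel is 12 h replicate 1.

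Several nuclear genes that act on mitochondrial DNA and RNA changed over the time course. Of 28 genes for maintenance and transcription of mitochondrial DNA, 7 were higher and 2 lower at 24 h than at 0 h, and 3 were higher and 1 lower at 12 h. Of all genes tested, 8.2% were higher and 8.15% lower at 24 h, and 5.23% were higher and 6.24% lower at 12 h. RRM2B, a ribonucleotide reductase subunit that supplies deoxynucleotides outside S phase, fell from 139 ± 5.40 CPM at 0 h (SD, n = 2) to 101 ± 6.99 at 12 h and 104 ± 4.46 at 24 h (n = 3 each). Its log2 change at 24 h was -0.42 ± 0.053 (edgeR adjusted p = 3.7e-07). MRPL12, a mitochondrial ribosomal protein that also binds POLRMT, rose from 26.3 ± 1.67 to 33.1 ± 1.60 CPM (log2 change 0.33, edgeR adjusted p = 0.00032).

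The polymerase itself and its main activator did not pass the test. POLRMT had 55.9 ± 6.93, 61.2 ± 1.44 and 60.6 ± 2.56 CPM at 0, 12 and 24 h. TFAM, which packages mitochondrial DNA and activates its promoters, had 120, 113 and 124 CPM on average, with log2 changes from 0 h of -0.086 ± 0.058 at 12 h and 0.051 ± 0.058 at 24 h (SE). The other genes of this list called at 24 h, named because they passed, were ATAD3A, DNA2, MGME1, MPV17, MTERF2 and TWNK, the replicative helicase, all higher, and LIG3, a DNA ligase, lower.

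Of 33 genes for processing, stability and decay of mitochondrial RNA, 3 were higher and 2 lower at 24 h than at 0 h, or 15.2%, near the 16.3% of all genes. MTO1, which modifies mitochondrial tRNAs, had a log2 change of -0.38 ± 0.059 (edgeR adjusted p = 1.14e-05). LRPPRC, which binds and stabilises mitochondrial mRNAs, fell from 293 ± 11.4 to 259 ± 1.72 CPM (-0.18 ± 0.045, edgeR adjusted p = 0.00531). TBRG4, a FASTK family protein of mitochondrial RNA, rose (0.25 ± 0.051, edgeR adjusted p = 0.000437), and so did FASTKD1 and GTPBP3. At 12 h, 2 were higher (TBRG4, GTPBP3) and 4 lower (LRPPRC, MTO1, NSUN3, PTCD2), where 5.23% of all genes were higher and 6.24% lower.

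Of 13 regulators of mitochondrial biogenesis, 3 were higher and 1 lower at 24 h than at 0 h. This is 30.8%, where 16.3% of all genes were called. At 12 h, 1 was higher and 1 lower than at 0 h, or 15.4%, where 11.5% of all genes were called. Among these regulators NRF1 changed the most. This transcription factor of nuclear genes for respiration fell from 42.3 ± 3.01 CPM at 0 h to 30.6 ± 2.17 at 12 h and 27.9 ± 0.766 at 24 h (log2 change at 24 h -0.60 ± 0.065, edgeR adjusted p = 2.15e-08). ESRRA, a nuclear receptor of the same programme, rose by 0.23 ± 0.049 at 24 h (edgeR adjusted p = 0.000764), as did MYC and PPARGC1B, chosen for mention because they passed. PPARGC1A, the coactivator known as PGC-1α, was at 0.868 ± 0.331, 0.775 ± 0.0353 and 0.812 ± 0.206 CPM, a level too low to resolve a small change.

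At 24 h against 0 h, 3 of the 76 tested nuclear subunits of the respiratory complexes and ATP synthase were called, 2 higher and 1 lower, where 8.2% of all genes were higher and 8.15% lower. NDUFB10, 1 of 37 complex I genes, was higher (0.15 ± 0.046), and NDUFB5 missed the threshold (-0.18 ± 0.066, edgeR adjusted p = 0.0545). CYC1, the cytochrome c1 of complex III, was higher (0.15 ± 0.045) as 1 of 9 genes, and UQCR11 had 0.14 ± 0.063 (edgeR adjusted p = 0.15). COX7A2L, which joins complexes III and IV, was lower (-0.20 ± 0.048) as 1 of 12 complex IV genes, and COX6A1 had -0.038 ± 0.049 (edgeR adjusted p = 0.692). None of 18 ATP synthase genes passed, with log2 changes of 0.12 ± 0.049 for ATP5F1D (edgeR adjusted p = 0.0925) and 0.12 ± 0.048 for ATP5IF1 (edgeR adjusted p = 0.0965). At 12 h against 0 h, 7 of the 76 were called, where 11.5% of all genes were. NDUFB10, NDUFB7, CYC1, COX8A and ATP5IF1 were higher, and NDUFB5 and COX7A2L lower.

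Among the 19 translation factors tested, 1 was higher and 1 lower at 24 h than at 0 h. This is 10.5%, under the 16.3% of all genes called. GFM1, an elongation factor, was lower (-0.17 ± 0.053, edgeR adjusted p = 0.0256). MTFMT, which formylates the initiator tRNA, was higher (0.21 ± 0.069, edgeR adjusted p = 0.0361). No translation factor was called at 12 h against 0 h.

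From 12 h to 24 h, 1 of the 169 tested entries of these 8 lists was called, where 2.76% of all genes were. It was NDUFB7 of complex I, which was lower (log2 change -0.19, edgeR adjusted p = 0.0485) after having been higher at 12 h than at 0 h. The median log2 change of the nuclear subunit genes was -0.050 for complex I, -0.037 for complex III, -0.043 for complex IV and -0.0081 for ATP synthase. It was 0.15 for the 13 mitochondrial mRNAs and 0.0018 for all genes. The difference between the nuclear and mitochondrial subunits was not tested.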

How the data were processed

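RNA was sequenced as paired 150-base reads from TruSeq mRNA libraries. The authors trimmed reads with Cutadapt, aligned them with STAR to GRCh38 and counted genes with featureCounts, and the deposited values are raw counts. Strand, pairing and multi-mapping settings of the counting are not given in the sources used here, so reads shared by overlapping genes or nuclear copies may be split or dropped. A 0 h library was left out by the authors. The second 0 h column carries a number that no 0 h label has and was used without a replicate number. Coordinates equalled GENCODE release 44 for 37 of 37 genes.

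Library sizes and TMM factors were computed on nuclear genes only (edgeR 4.0.16, R 4.3.3). Genes past filterByExpr (21071) were tested over all 8 libraries with glmQLFit (robust) and glmQLFTest, and called when p, after Benjamini-Hochberg adjustment over these genes, was 0.05 or less. The biological coefficient of variation was 5.59%. SE values were derived from the F statistic. The fit was tested on simulated data. Single values per library were compared with exact permutation tests. DESeq2 1.42.0, other scalings, other filters, added nuclear copies, a replicate block and leaving out each library were alternatives. The labels call the samples biological replicates, and the study's methods describe triplicate wells. All are of 1 line, so p-values measure the spread between such wells. Chi-square statistics per degree of freedom of 5.10 to 13.8 within groups showed no library deposited more than once. Nuclear copies were taken as annotated copies of mitochondrial genes, and windows were compared with their sequences.

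The members follow from the chromosome. They, the gene lists and the tests were chosen with earlier results of these data known. All mRNAs and rRNAs are named, with the 5 best-counted tRNAs, tRNAs called, and of each list the 2 genes of smallest p at 24 h against 0 h plus POLRMT, TFAM, LRPPRC and PPARGC1A, and some further genes called, named as such.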

Additional observations from a re-analysis of the deposited data

How the results depend on the processing

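The count of mitochondrial mRNAs called at 12 h against 0 h was 0. It was 3 with no low-count filter and 1 with DESeq2, and 0 to 6 when 1 library was left out. At 24 h against 12 h it was 6. It was 3 with TMM over nuclear protein-coding genes and 0 to 7 when 1 library was left out. At 24 h against 0 h it was 0 under every alternative run. The cause of these shifts was not tested, beyond fewer libraries in the fits without a library. Equal replicate numbers at 12 h and 24 h gave r = 0.118, 0.0301 and 0.0285, and unequal numbers gave -0.0992 to 0.0714. All were small, and whether the numbers pair the libraries was not settled. A replicate block, fitted to the 12 h and 24 h libraries alone, gave 7 mRNAs, both rRNAs and 1 tRNA, MT-TP. The same libraries without a block gave 5 mRNAs, both rRNAs and no tRNA. Over all genes the calls were 855 with the block and 679 without it, against 581 in the main fit of all 8 libraries.

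With TMM over nuclear protein-coding genes MT-ND5 changed sign at 24 h against 0 h (-0.00089). Other changes of sign came from leaving out 1 library, none in a called result. The log2 ranges at 12 h against 0 h were -0.050 to 0.026 for MT-CO1, -0.11 to 0.12 for MT-CO2, -0.048 to 0.053 for MT-ND4, -0.095 to 0.049 for MT-ND4L, -0.11 to 0.022 for MT-ND5, -0.31 to 0.029 for MT-TC, -0.23 to 0.0040 for MT-TL1 and -0.045 to 0.047 for MT-TY. At 24 h against 0 h they were -0.013 to 0.049 for MT-CO1, -0.093 to 0.13 for MT-CO2, -0.019 to 0.094 for MT-CYB, -0.012 to 0.066 for MT-ND1, -0.039 to 0.10 for MT-ND4L, -0.057 to 0.074 for MT-ND5, -0.0041 to 0.048 for MT-ND6, -0.0075 to 0.097 for MT-RNR1, -0.089 to 0.14 for MT-TL1, -0.012 to 0.041 for MT-TN and -0.041 to 0.039 for MT-TP. At 24 h against 12 h they were -0.0071 to 0.074 for MT-CO1, -0.040 to 0.048 for MT-CO2, -0.011 to 0.083 for MT-ND4, -0.0016 to 0.092 for MT-ND5 and -0.072 to 0.026 for MT-ND6. Where a time point was left with 1 library, that library was assumed to vary like the others. Depth limited the 13 tRNAs with under 100 counts on average.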

Other observations

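Of the 9 RNAs without a poly(A) tail in the table, 5 were tested. SNORD3A, the U3 small nucleolar RNA, averaged 0.355 ± 0.288 CPM at 24 h (SD, n = 3) and 0.00875 ± 0.00762 CPM at 12 h (edgeR adjusted p = 0.0042), levels near the counting limit. TERC, the telomerase RNA, fell from 1.34 ± 0.186 CPM at 0 h (n = 2) to 0.745 ± 0.183 CPM at 24 h (edgeR adjusted p = 0.0226). SNORA73B was higher at 12 h than at 0 h (edgeR adjusted p = 0.0313) and is named because it passed.

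After MTATP6P1, the nuclear copies with the most counts were MTCO1P12 with 22253 and MTND2P28 with 5854, which is 0.241% and 0.353% of the counts of MT-CO1 and MT-ND2. The nuclear copies other than MTATP6P1 summed to 76.9 CPM in 12 h replicate 1 and to less in each of the other 7 libraries, down to 58.2 CPM.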
